A study of Mus musculus with 6 samples.

Results

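KD3010 and GW1516 are agonists of the nuclear receptor PPAR-delta, and the results below concern the change in gene expression that both gave in primary mouse hepatocytes. The 4 arrays of agonist-treated cells, 2 with KD3010 and 2 with GW1516, formed one side of the comparison and the 2 arrays of cells given the vehicle DMSO the other, which takes in all 6 arrays of the series. All 3 groups were hepatocytes of male wildtype mice, aged 10 weeks and on a C57Bl6/J background, and the labels distinguish them by the agent alone. Doses, treatment times and the number of animals are not given in the sources used here. Both arrays of a group are called technical replicates in the labels, so every p-value below measures only how far arrays differ, which may be technical.

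A probe entered when its detection p was below 0.05 on all 4 agonist arrays or on both DMSO arrays, which held for 10068 of 25697 probes. With the brightest such probe for each gene, 7737 genes were tested, of which 7165 have a symbol and 572 are unnamed probes. Levels are log2 values of the background-corrected, quantile-normalized intensity, and a change is the mean of the 4 agonist arrays minus the mean of the 2 DMSO arrays on that scale. A gene is said to lie above or below DMSO when all 4 agonist arrays were higher, or all 4 lower, than both DMSO arrays. A gene is said to have risen or fallen only when limma, an empirical Bayes linear model, gave a change of at least 1.5-fold and an adjusted p below 0.05 over all 7737 genes.

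PPAR-delta is a transcription factor that binds DNA together with a retinoid X receptor and turns genes on when a fatty acid or a synthetic agonist occupies it. It is best known for raising the capacity of cells to take up, store and oxidise fatty acids, and for sparing glucose. In liver many of its target genes are shared with PPAR-alpha, the related receptor of the fasting response, so the list of PPAR target genes used here does not separate the receptors.

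A small number of genes rose with the pooled agonists. Pdk4, a kinase that switches off pyruvate dehydrogenase, rose 5.26-fold. Creb3l3, a membrane-bound transcription factor of hepatocytes that acts in lipid metabolism during fasting, rose 4.04-fold, Plin2, a protein that coats lipid droplets, 3.84-fold, and Hilpda, a lipid droplet protein that inhibits triglyceride breakdown, 2.91-fold. Nceh1, a hydrolase of neutral cholesterol esters, rose 2.27-fold. Together with Ivl and Mapre3 these were the 7 genes that rose, 0.0905% of those tested, and 0 genes (0%) fell. Ivl and Mapre3 were not detected with DMSO and entered through the agonist arrays only, where they are high, and among genes detected on all 6 arrays the other 5 were called. At an unadjusted p below 0.05, limma gave 571 of the 7737 genes, 287 with higher and 284 with lower levels. With no effect on any gene, a share of about 0.05 would pass that threshold. In a bulk sample, fewer cells of a type and less RNA per cell cannot be told apart.

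On the DMSO arrays the log2 level of Creb3l3 was 8.84 and 9.02. It was 10.96 and 10.995 on the KD3010 arrays and 11.07 and 10.76 on the GW1516 arrays. The 4 agonist arrays lay close together, and the lowest of them was 1.74 above the higher DMSO array, the widest such gap of any tested gene. The change was 2.02 ± 0.15 (SE, n = 4 and 2 arrays) with a limma adjusted p of 0.000447.

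Pdk4 had levels of 8.96 and 8.35 with DMSO, 10.61 and 10.55 with KD3010, and 11.51 and 11.53 with GW1516. The groups did not overlap, and both GW1516 arrays were also above both KD3010 arrays. Its change of 2.40 ± 0.31 had the largest SE of the 7 genes (limma adjusted p = 0.0114). The pooled model counts a difference between the agonists as spread.

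The levels of Plin2 were 10.76 and 10.33 with DMSO, 12.20 and 13.02 with KD3010, and 12.29 and 12.45 with GW1516. KD3010 array B stood highest, and the other 3 agonist arrays lay close together. The change was 1.94 ± 0.23 (limma adjusted p = 0.00871). For Hilpda the levels were 11.92 and 11.57 with DMSO, 13.37 and 13.39 with KD3010, and 13.25 and 13.13 with GW1516, a change of 1.54 ± 0.16 (limma adjusted p = 0.00544). All 4 agonist arrays of Hilpda again lay together and far from DMSO. A second probe of Hilpda, left out because it was dimmer, gave 1.42 ± 0.15 (limma adjusted p = 0.00556 over the 10068 probes).

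Nceh1 had levels of 9.64 and 9.61 with DMSO, 10.67 and 10.82 with KD3010, and 10.96 and 10.78 with GW1516. The change was 1.18 ± 0.15 (limma adjusted p = 0.0114), and the smallest gap between an agonist and a DMSO array was 1.03. The other 2 genes that rose were not detected on either DMSO array. Ivl encodes involucrin, a protein of the epidermal cornified envelope, and its levels were 5.73 and 6.002 with DMSO, 7.32 and 7.32 with KD3010, and 7.07 and 7.32 with GW1516. Mapre3 encodes a protein that binds growing microtubule ends, and its levels were 6.05 and 5.81 with DMSO, 6.82 and 7.16 with KD3010, and 7.29 and 7.41 with GW1516. For both genes the DMSO level is only an upper bound, set from the lowest detected signal, so the difference was at least 2.07-fold for Ivl (limma adjusted p = 0.00707) and at least 1.95-fold for Mapre3 (limma adjusted p = 0.0415). Both passed the detection rule only on the side where they are high, so these p-values are given as a description. With no filter on dim probes Ivl was called and Mapre3 was not.

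**Figure D1:**
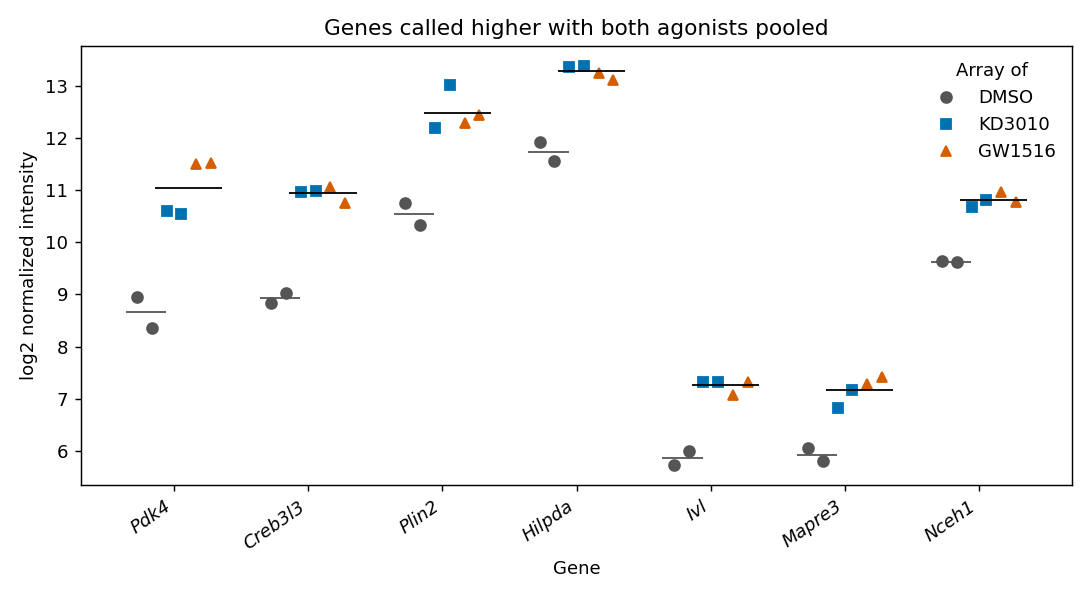
Log2 normalized intensity of the 7 genes that rose, with 1 point for each of the 6 arrays (grey circles DMSO, blue squares KD3010, orange triangles GW1516) and lines at the mean of the DMSO and of the agonist arrays. In each gene all 4 agonist points lie above both DMSO points, with the widest gap in Creb3l3 (1.74) and the narrowest in Mapre3 (0.77).

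The intensities that the authors had normalized themselves gave calls for the 5 genes detected on all 6 arrays, at smaller folds. There limma gave 3.71-fold for Pdk4 (adjusted p = 0.00118), 3.07-fold for Creb3l3 (adjusted p = 4.52e-06), 3.43-fold for Plin2 (adjusted p = 0.00024), 2.80-fold for Hilpda (adjusted p = 2.49e-05) and 1.98-fold for Nceh1 (adjusted p = 0.0004). Ivl and Mapre3 lay above DMSO there too but were not called, at 1.39-fold and 1.35-fold (limma adjusted p = 0.162 and 0.291). Cpt2 (1.63-fold) and the kinase gene Pim3 (1.64-fold, named after its value was seen) were called in addition (limma adjusted p = 0.0105 for both), and the metallothionein gene Mt2 was called lower (limma adjusted p = 0.0305). Without DMSO array A the calls were Creb3l3 and Hilpda alone, and without DMSO array B Creb3l3 alone. In those fits the lone DMSO array is assumed to vary like the agonist groups. The sizes stayed large, and over all alternatives tried the change was at least 1.89 for Pdk4, 1.73 for Plin2 and 0.99 for Nceh1.

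PPAR and the retinoid X receptor bind as a pair at 2 copies of the half-site AGGTCA spaced by 1 base. This element was searched on both strands of the RefSeq promoters (GRCm38.p6, 250 bases before to 50 bases after each gene start), which were available for all 7 genes that rose. No promoter of the 7 held it without a mismatch. The promoters of Creb3l3 and Plin2 held a match with 2 mismatches, printed in capitals. Those of Pdk4 and Hilpda, the other 2 genes with the largest rises, held none within 2 mismatches and are shown for comparison in lower case. The sequences run 5′ to 3′ on the strand of the gene, at chr10:81092542-81092841 (minus strand) for Creb3l3, chr4:86670010-86670309 (minus strand) for Plin2, chr6:5496229-5496528 (minus strand) for Pdk4 and chr6:29272238-29272537 (plus strand) for Hilpda.
Creb3l3: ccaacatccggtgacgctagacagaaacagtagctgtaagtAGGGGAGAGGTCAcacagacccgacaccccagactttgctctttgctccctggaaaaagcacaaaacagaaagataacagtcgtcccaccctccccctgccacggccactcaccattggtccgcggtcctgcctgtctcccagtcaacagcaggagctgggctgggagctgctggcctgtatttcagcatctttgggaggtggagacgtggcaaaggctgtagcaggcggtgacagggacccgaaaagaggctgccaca
Plin2: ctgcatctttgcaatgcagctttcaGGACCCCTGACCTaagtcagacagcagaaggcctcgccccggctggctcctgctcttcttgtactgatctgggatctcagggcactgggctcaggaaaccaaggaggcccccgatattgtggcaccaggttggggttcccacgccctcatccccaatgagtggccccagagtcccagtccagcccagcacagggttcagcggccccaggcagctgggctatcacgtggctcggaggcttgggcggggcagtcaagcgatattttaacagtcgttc
Pdk4: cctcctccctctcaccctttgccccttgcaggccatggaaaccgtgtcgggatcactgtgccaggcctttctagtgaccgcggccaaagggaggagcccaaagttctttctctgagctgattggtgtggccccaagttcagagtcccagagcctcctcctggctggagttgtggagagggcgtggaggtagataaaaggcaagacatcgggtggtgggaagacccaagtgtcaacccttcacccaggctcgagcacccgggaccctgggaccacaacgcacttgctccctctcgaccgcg
Hilpda: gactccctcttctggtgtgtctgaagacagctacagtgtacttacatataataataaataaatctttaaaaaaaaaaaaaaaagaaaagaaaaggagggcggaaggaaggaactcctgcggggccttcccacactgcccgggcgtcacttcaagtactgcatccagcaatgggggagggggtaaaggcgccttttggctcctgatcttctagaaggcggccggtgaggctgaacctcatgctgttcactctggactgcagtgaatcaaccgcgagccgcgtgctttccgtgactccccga
In Creb3l3 the match spans bases -209 to -197 from the gene start. In Plin2 it spans bases -225 to -213 and reads as the element on the opposite strand. Creb3l3 and Hilpda each have a further annotated start, whose promoter held no match within 2 mismatches. Such a match was present for 4.4% of all 27025 genes with a promoter, 3.91% of the 5880 tested genes with one, 5.19% of the 482 genes above DMSO and 2.43% of the 536 below. At this length a match is a description of letters, and the windows leave out introns and distant sequence, where such elements also lie.

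The 7 genes that rose included, 632 genes lay above DMSO (8.17%) and 693 below (8.96%). In the authors' normalized table these were 629 and 705, of which 615 and 683 were shared, and 0 genes lay on opposite sides in the 2 tables. If the 6 arrays were exchangeable, a share of 0.133 of genes would lie above or below DMSO with no agonist effect. Many of the 1325 genes found here, of 7737 tested, could therefore lie there without one. The median change was 0.31 in the genes above and -0.33 in those below. By a gap of at least 0.5, 18 genes lay above and 3 below. By a gap of at least 1 these were 6 and 0. The 18 include Ivl, Mapre3 and Galns, and the 6 include Ivl, none of them detected on either DMSO array. Among the 3, Pmpca was not detected on any agonist array. These genes entered only through the side where they are high. In all, 112 genes were kept through the agonist arrays only and 505 through the DMSO arrays only. A mean change of 2-fold or more was reached by 9 genes above, Ivl and Mapre3 among them, and 1 gene below. Of the 632 genes, 592 were detected on all 6 arrays, and so were 599 of the 693. At the edge of the rule, Zfp330 was inside by 0.000405 and Sbk1 by 0.000569 on the log2 scale, while Apoa1 and Npm1 were just outside through a tie.

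The split between higher and lower depended on the scaling. In the unnormalized signals the median change of all genes was -0.13, and 99 genes lay above DMSO and 2005 below. Scaling each array to one median, in place of matching the whole distribution, gave 244 above and 1278 below and moved the median change of all genes from -0.01 to -0.12. The 7 genes that rose lay above DMSO in the authors' table and in the unnormalized signals as well. With 6 arrays the exact permutation test allows 15 arrangements and a smallest two-sided p of 0.133, so no single gene could reach 0.05 in that test.

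The arrays were alike in detected probes and in correlation, while their mean unnormalized signal ranged from 953.2 to 1157. Detected probes numbered 10239 to 10805 on each array, and arrays of one group correlated at 0.989 to 0.991, against at most 0.99 between groups. Of the 18 hepatocyte markers 13 were tested, all of them detected on all 6 arrays, with 0 above DMSO and 2 below (Apoa2 and Ambp). Their summed intensity, in units of 1000, was 392 to 399 with DMSO and 385 to 403 with the agonists. Sinusoidal endothelial markers summed to 3.57 to 3.63 with DMSO and 3.48 to 4.10 with the agonists over 10 tested of 15. Of these, Eng lay above DMSO (0.32 ± 0.14) and Lyve1 below (-0.54 ± 0.16), 10% each. Stellate cell markers summed to 4.21 to 4.49 and 3.69 to 5.17 over 4 tested of 14. Of the Kupffer cell and cholangiocyte markers 1 each was tested, and of the lymphocyte and adipocyte markers 0. The part of other cell types in the changes was not tested.

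The tested PPAR target genes lay on the upper side or overlapped. The list has 49 genes, of which 43 had a named probe and 28 passed the detection rule. Of these 28, 17 lay above DMSO (60.7%, against 8.17% of all genes) and 0 below. Plin5, among the 17, entered through the agonist arrays only, where it is high, and the other 27 tested genes were detected on all 6 arrays. The median change of the 28 was 0.44, against -0.01 over all genes. Pdk4, Creb3l3, Plin2 and Hilpda rose, and 0 members fell. With median scaling 12 of the 28 lay above (42.9%, against 3.15% of all genes) and 0 below (against 16.5%). The median of the list stood 0.45 above that of all genes with quantile normalization and 0.46 with median scaling. It stood 0.32 above with the authors' normalized values and 0.29 in the unnormalized signals. With no filter on dim probes the median change of the list was 0.24. In the unnormalized signals 11 of the 28 lay above and 2 below, against 1.28% and 25.9% of all genes. Against the DMSO mean, the median of the list was 0.28 and 0.46 on the KD3010 arrays and 0.51 and 0.45 on the GW1516 arrays. The list and its members were chosen with results of these arrays known, so the count describes these data.

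Among the targets that did not pass the test over all genes, the levels of Cpt2, which releases fatty acids from carnitine inside mitochondria, were 10.09 and 10.32 with DMSO, 11.04 and 10.999 with KD3010, and 10.95 and 11.11 with GW1516. The change was 0.82 ± 0.15 (limma adjusted p = 0.145). Slc22a5, the plasma membrane carnitine transporter, had levels of 8.34 and 8.36 with DMSO, 9.29 and 9.08 with KD3010, and 9.12 and 9.11 with GW1516, a change of 0.80 ± 0.14 (limma adjusted p = 0.145). In both genes the 4 agonist arrays lay close together and clear of DMSO. A dimmer probe of Slc22a5 gave 1.12 ± 0.17 (limma adjusted p = 0.0421 over all probes), while the third, the dimmest, gave 0.12 ± 0.20 with overlapping groups.

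Acadl, a dehydrogenase of long fatty acyl chains, had levels of 8.47 and 8.27 with DMSO, 8.97 and 9.11 with KD3010, and 9.49 and 9.21 with GW1516. The change was 0.83 ± 0.17 (limma adjusted p = 0.238), and a dimmer probe gave 1.30 ± 0.17 (limma adjusted p = 0.0127 over all probes). Acadl was called when the probes of a gene were averaged (limma adjusted p = 0.0492). Ehhadh, a multifunctional enzyme of peroxisomal oxidation, lay at 7.29 and 7.59 with DMSO, 7.93 and 7.86 with KD3010, and 9.07 and 8.48 with GW1516. Its GW1516 arrays were higher than its KD3010 arrays, and the pooled change of 0.89 ± 0.30 did not pass (limma adjusted p = 0.556). Acot2, a mitochondrial acyl-CoA thioesterase, had a mean difference from DMSO of 0.84 ± 0.24 (limma adjusted p = 0.471), and its KD3010 array A, at 6.97, was only 0.07 above DMSO array A.

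The secreted targets differed from DMSO by less. Angptl4, an inhibitor of lipoprotein lipase, lay at 13.18 and 13.27 with DMSO and between 13.50 and 13.79 with the agonists, a change of 0.44 ± 0.15 (limma adjusted p = 0.586). Fgf21, a fasting hormone of the liver, lay at 10.94 and 11.01 with DMSO and between 11.23 and 11.50 with the agonists, a change of 0.35 ± 0.15 (limma adjusted p = 0.66). Both lay above DMSO on all 4 arrays, by at least 0.23 and 0.21. Plin5, which coats droplets next to mitochondria, was not detected on either DMSO array. Its agonist levels were 6.88 and 6.93 with KD3010 and 6.36 and 6.37 with GW1516, at least 1.35-fold above the bound for DMSO (limma adjusted p = 0.501). Cyp4a14, a fatty acid omega-hydroxylase induced through PPAR-alpha in mouse liver, overlapped between the groups, at 7.91 and 8.10 with DMSO and between 7.79 and 8.34 with the agonists. The probes of Cpt1a and Acot1 did not pass the detection filter.

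**Figure D2:**
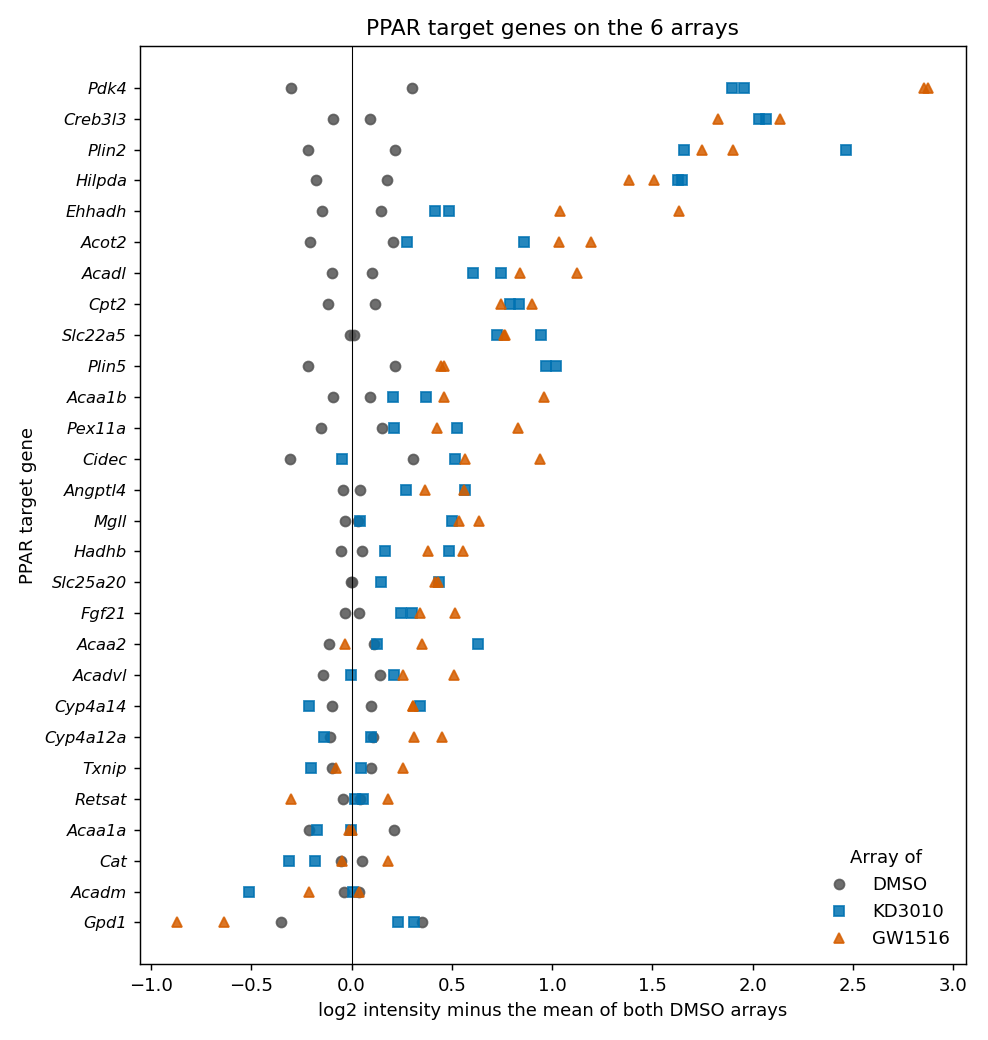
Log2 intensity of the 28 tested PPAR target genes on each of the 6 arrays, minus the mean of both DMSO arrays (x axis), ordered by the pooled change, with grey circles for DMSO, blue squares for KD3010 and orange triangles for GW1516. The 4 genes at the top rose by 1.54 or more, 17 of the 28 have all 4 agonist points to the right of both DMSO points, and 0 have all 4 to the left. Plin5, among the 17, entered through the agonist arrays only.

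The list members named in the following lines beyond those already described were chosen after their values were seen and did not pass the test over all genes. Over all genes 8.17% lay above DMSO and 8.96% below. Mitochondrial fatty acid oxidation had 10 of 21 tested genes above DMSO (47.6%) and 0 below, with a median change of 0.24. It shares 6 of those 10 with the PPAR target list, and outside that list 4 of 12 lay above, with a median of 0.18. The 4 were Eci2, an enoyl-CoA isomerase (0.65 ± 0.16, limma adjusted p = 0.36), Etfdh and Etfb, which pass electrons from the dehydrogenases to the respiratory chain (0.47 ± 0.19 and 0.30 ± 0.14), and Decr1, a dienoyl-CoA reductase detected on 1 DMSO array only (0.20 ± 0.15). Decr1 entered through the agonist arrays only. The medium-chain dehydrogenase gene Acadm overlapped between the groups, at -0.17 ± 0.18. With median scaling 5 of 21 lay above (23.8%, against 3.15% of all genes) and 0 below (against 16.5%). In the unnormalized signals 4 lay above (19%, against 1.28%) and 2 below (9.52%, against 25.9%).

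Against the same 8.17% and 8.96% over all genes, peroxisomal fatty acid oxidation had 7 of 20 genes above (35%) and 0 below, with a median of 0.13. Besides Ehhadh these were the thioesterase gene Acot4 (0.72 ± 0.15, limma adjusted p = 0.238), the thiolase gene Acaa1b (0.50 ± 0.20), Pex11a, which acts in peroxisome division (0.50 ± 0.19), Decr2, Pex5 and Pex16. Decr2 was not detected on either DMSO array and entered through the agonist arrays only. Outside the PPAR target list 4 of 15 lay above, with a median of 0.08. The lipid droplet list also had 7 of 20 above (35%) and 0 below, with a median of 0.13. Plin2, Hilpda and Nceh1 rose, and Plin5, the phosphatidate phosphatase gene Lpin2 (0.46 ± 0.14), Mgll, a monoacylglycerol lipase (0.43 ± 0.18), and Pnpla2, the first lipase of triglyceride breakdown (0.32 ± 0.15), lay above. Plin5 entered through the agonist arrays only. Outside the PPAR target list 3 of 15 lay above, with a median of 0.03. The genes of the last step of triglyceride synthesis overlapped between the groups, with Dgat1 at -0.23 ± 0.25 and Dgat2 at -0.02 ± 0.16. With median scaling 5 of 20 lay above (25%, against 3.15% of all genes) and 0 below (against 16.5%) in either list. In the unnormalized signals the peroxisomal list had 3 above (15%) and 2 below (10%), and the droplet list 3 (15%) and 1 (5%). There 1.28% of all genes lay above and 25.9% below.

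The next counts stand against 8.17% of all genes above DMSO and 8.96% below. Ketone body synthesis and fasting hormones had 3 of 7 above (42.9%) and 0 below. These 3, Creb3l3, Angptl4 and Fgf21, all stand in the PPAR target list too. Fatty acid uptake, binding and activation had 0 of 13 tested genes above and 1 below. The gene below was Acsm1, with a gap to DMSO of only -0.0009, and it overlapped between the groups in the authors' normalized table. Of 9 acyl-CoA thioesterases, Acot2 and Acot4 lay above (22.2%) and Acot9 (-0.40 ± 0.17) and Acot11 (-0.45 ± 0.20) below (22.2%). Acot11 was not detected on any agonist array and entered through the DMSO arrays only, where it is high. Its agonist level is only an upper bound, so its change is given as a description. In the pyruvate dehydrogenase group Pdk4 alone was above, and Pdha1, the catalytic subunit gene of the complex (-0.57 ± 0.22, limma adjusted p = 0.623), and Pdp2, a phosphatase that reactivates it (-0.28 ± 0.16), lay below, out of 8. The levels of Pdha1 were 10.20 and 10.42 with DMSO, 9.58 and 9.98 with KD3010, and 9.31 and 10.10 with GW1516. Oxidative phosphorylation subunits had 0 of 28 above and 2 below (7.14%), with a median of 0.02. Gluconeogenesis and glycolysis had 1 above and 1 below of 8 (12.5% each). Fatty acid and cholesterol synthesis had 3 above (13.6%) and 1 below (4.55%) of 22.

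Of the receptors themselves, the probes of Ppard and Ppara did not pass the detection filter. Pparg had levels of 7.62 and 7.89 with DMSO and between 7.53 and 7.97 with the agonists, so the groups overlapped throughout (0.01 ± 0.18, and -0.10 with median scaling). Of 17 tested nuclear receptors and coregulators 3 lay above (17.6%, against 8.17% of all genes) and 0 below (against 8.96%). These were Rxra, the binding partner of the PPARs (0.41 ± 0.16, limma adjusted p = 0.623), Nr1i3, the drug-sensing receptor CAR (0.50 ± 0.19), and Nr1h4, the bile acid receptor FXR (0.28 ± 0.18). Nr1h4 overlapped between the groups in the authors' normalized table. With median scaling 1 of the 17 lay above (5.88%, against 3.15% of all genes) and 2 below (11.8%, against 16.5%).

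**Figure D3:**
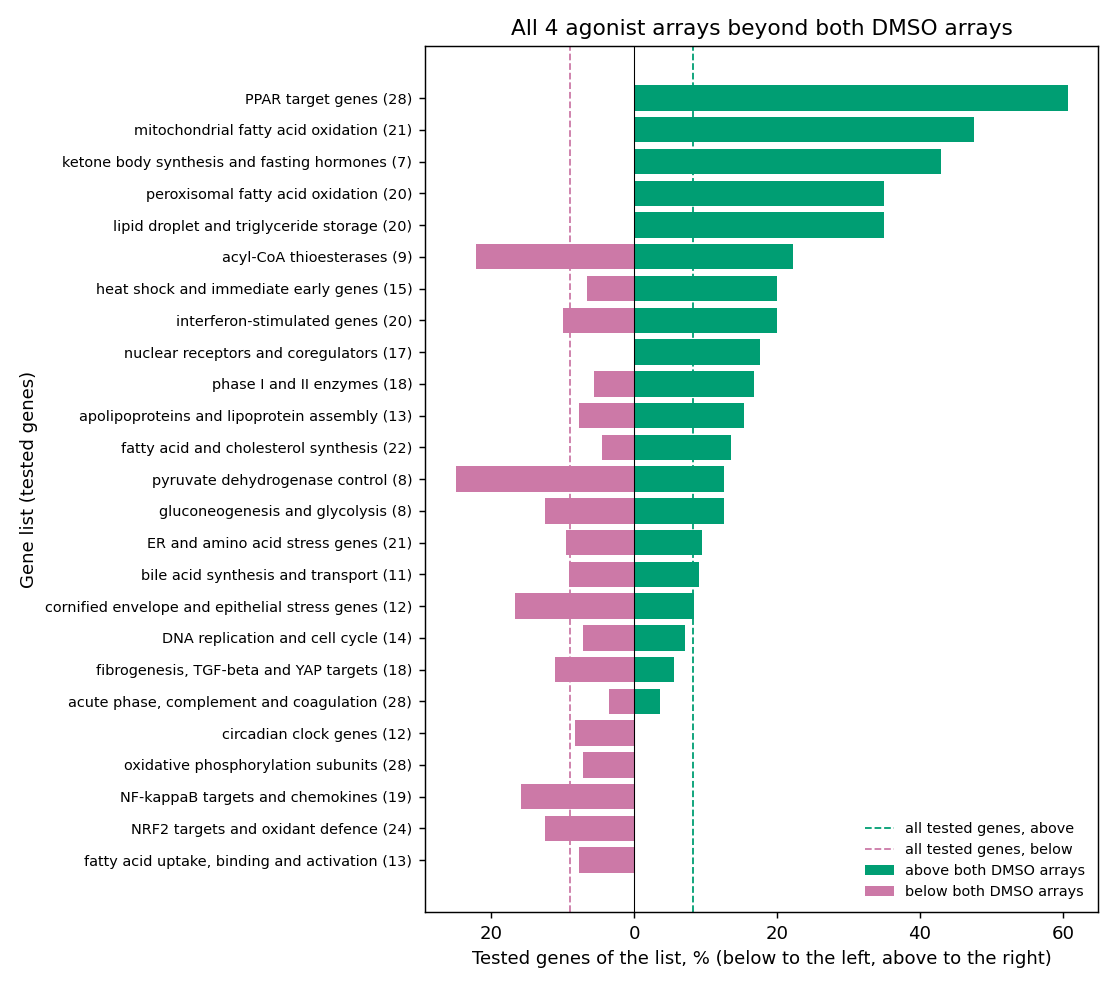
Share of the tested genes of each of 25 lists with all 4 agonist arrays above both DMSO arrays (green, to the right) or below both (pink, to the left), with the number of tested genes in brackets and dashed lines at the shares over all 7737 genes (8.17% and 8.96%). PPAR target genes (60.7%) and mitochondrial fatty acid oxidation (47.6%) have the longest green bars, and neither has a pink one. These bars take in Plin5 and Decr1, which entered through the agonist arrays only.

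Lists of inflammation, oxidant defence and fibrogenesis had shares below DMSO near that of all genes, each resting on 2 or 3 genes. The list of chemokines and targets of NF-kappaB, the transcription factor of inflammation, had 0 of 19 above and 3 below (15.8%, against 8.96% of all genes). The 3 were Il6 (-0.46 ± 0.17), Icam1 (-0.30 ± 0.14) and Ccl7. NRF2 is a transcription factor of oxidant defence, and the list of its targets and other oxidant defence genes had 0 of 24 above and 3 below (12.5%). The 3 were Mt2, Hmox1, the heme oxygenase gene (-0.56 ± 0.17), and Slc7a11, the cystine transporter gene (-0.43 ± 0.16). Fibrogenesis genes had 1 of 18 above and 2 below (11.1%), with a median of -0.12. Timp1, an inhibitor of matrix proteases (-0.25 ± 0.15), and Skil (-0.33 ± 0.15) were below. Ccn2, the connective tissue growth factor gene, was above by 0.009 only, at 13.68 and 13.55 with DMSO, 13.69 and 13.71 with KD3010, and 14.24 and 14.20 with GW1516. Its pooled change of 0.34 ± 0.20 did not pass (limma adjusted p = 0.765). With median scaling 26.3% of the NF-kappaB list, 16.7% of the NRF2 list and 22.2% of the fibrogenesis list lay below, against 16.5% of all genes. In the unnormalized signals these shares were 36.8%, 25% and 44.4%, against 25.9%.

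Phase I and II enzymes had 3 of 18 above and 1 below, with Fmo5, a flavin monooxygenase (0.80 ± 0.23), and Ephx1, the microsomal epoxide hydrolase (0.45 ± 0.14), among those above. Interferon-stimulated genes had 4 above and 2 below of 20 (20% above), heat shock and immediate early genes 3 and 1 of 15 (20% above), ER and amino acid stress genes 2 and 2 of 21, and apolipoproteins 2 and 1 of 13. Acute phase genes had 1 and 1 of 28, bile acid genes 1 and 1 of 11, cell cycle genes 1 and 1 of 14, clock genes 0 and 1 of 12, and cornified envelope and epithelial stress genes 1 and 2 of 12. In this last list Ivl, which entered through the agonist arrays only and was not called in the authors' normalized values, lay above DMSO, while other envelope genes such as Lor (0.05 ± 0.16), Tgm1 (0.14 ± 0.20) and Sprr1a (0.08 ± 0.18) overlapped between the groups. Set against 8.17% above and 8.96% below over all genes, most of these shares rest on 1 to 3 genes.

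After the 7 genes that rose, the largest mean changes above DMSO among genes detected on all 6 arrays were those of Rad54b, Ifnk, Mrpl39, Ehhadh and Il11. Rad54b, a factor of homologous recombination, lay at 7.86 and 7.90 with DMSO, 9.59 and 9.38 with KD3010, and 8.57 and 9.25 with GW1516 (1.32 ± 0.24, limma adjusted p = 0.147). GW1516 array A was the lowest of the 4. Ifnk, a type I interferon, lay at 6.29 and 6.44 with DMSO, 7.62 and 7.76 with KD3010, and 7.03 and 7.07 with GW1516 (1.01 ± 0.22, limma adjusted p = 0.304). Mrpl39, a protein of the mitochondrial ribosome, had a mean difference of 0.94 ± 0.17 and Il11, a cytokine, of 0.88 ± 0.18 (limma adjusted p = 0.145 and 0.238). Ifnk, Mrpl39 and Il11 have dim probes, and in the authors' normalized table limma gave folds of 1.30 for Ifnk, 1.29 for Mrpl39 and 1.30 for Il11.

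No gene passed the test on the lower side, where the largest change belonged to Mt2, which encodes a metal-binding metallothionein. Its levels were 11.25 and 11.74 with DMSO, 10.26 and 10.00 with KD3010, and 10.50 and 10.76 with GW1516. The 4 agonist arrays were all at least 0.49 below the lower DMSO array, and the change of -1.11 ± 0.22, 2.17-fold lower, had a limma adjusted p of 0.221. B230219D22Rik, an uncharacterised gene, had agonist arrays close together, at 9.005 and 8.90 with DMSO, 8.33 and 8.19 with KD3010, and 8.09 and 8.28 with GW1516 (-0.73 ± 0.15, limma adjusted p = 0.221).

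Cp, the copper-carrying plasma protein ceruloplasmin, lay at 12.89 and 12.87 with DMSO, 12.04 and 11.95 with KD3010, and 12.45 and 12.43 with GW1516 (-0.66 ± 0.18, limma adjusted p = 0.455). Both agonists lay below DMSO, and KD3010 further. The same order held for Scnn1a, which encodes a subunit of an epithelial sodium channel, at 9.45 and 9.36 with DMSO, 8.32 and 8.18 with KD3010, and 9.05 and 9.05 with GW1516, and for Guca2b, the uroguanylin precursor, at 9.82 and 9.73, 8.96 and 8.51, and 9.36 and 9.40. Their pooled changes were -0.75 ± 0.25 and -0.72 ± 0.23 (limma adjusted p = 0.558 and 0.543). Zc3h12a, an RNase that degrades inflammatory transcripts, had a mean difference of -0.67 ± 0.17, and Sirt1, a NAD-dependent deacetylase, of -0.72 ± 0.23 (limma adjusted p = 0.455 and 0.515). These belong to the 12 genes with the largest mean change among those detected on all 6 arrays and wholly below DMSO. The other 5 of the 12 were Nt5dc1 (-0.88 ± 0.23), Yeats2 (-0.70 ± 0.20), Srpk2 (-0.70 ± 0.21), Lhfp (-0.68 ± 0.18) and Mterf4 (-0.65 ± 0.17). Some genes not detected on all 6 arrays had larger changes, such as Chka (-0.92 ± 0.24). A second, dimmer probe of Mterf4 gave 0.07 ± 0.20 with overlapping groups, so the 2 probes of that gene disagreed.

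**Figure D4:**
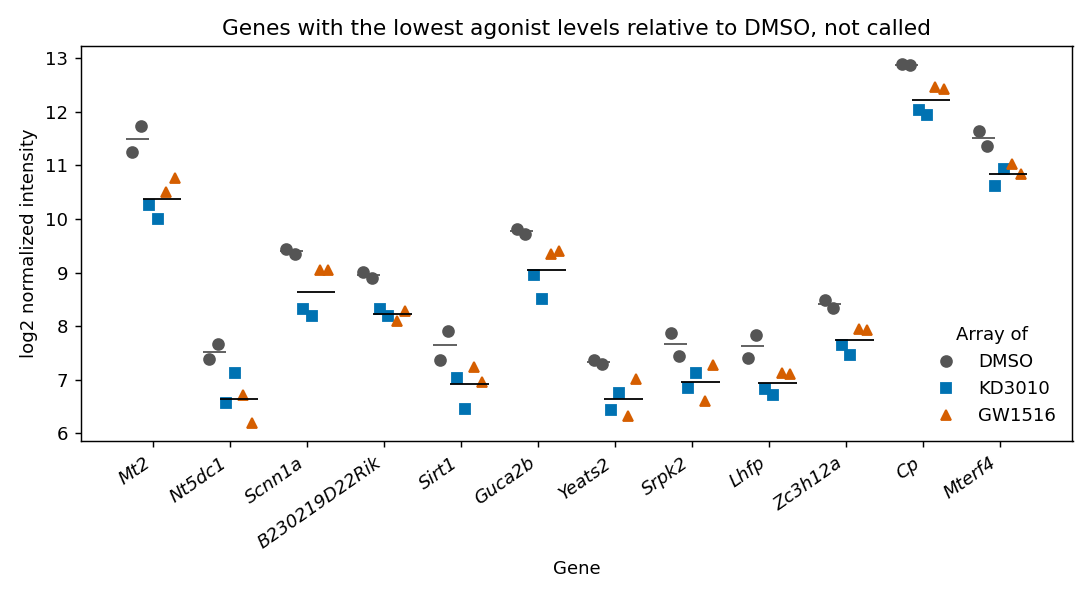
Log2 normalized intensity on the 6 arrays of the 12 genes with the largest mean change below DMSO among genes detected on all 6 arrays, none of them called (grey circles DMSO, blue squares KD3010, orange triangles GW1516, lines at the DMSO and agonist means). All 4 agonist points lie below both DMSO points in each gene, by 0.57 in B230219D22Rik and by 0.13 in Sirt1.

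The agonists were also set against each other in a model with 3 groups, as the 1 pair of compounds, to show where a shared change differed in size. Whether doses and times matched is not known, so the differences describe these arrays. Of 7737 genes 2 were called between KD3010 and GW1516 (0.0258%), and neither belonged to the shared changes. At an unadjusted p below 0.05 limma gave 1052 of the 7737 genes between the agonists, and 571 in the pooled comparison. A share of about 0.05 would pass with no effect on any gene. The pooled fit counts a difference between the agonists as spread and this model does not, so the 2 totals are not directly comparable. The 1052 include 30 of the 632 genes above DMSO and 55 of the 693 below. Those genes were chosen for having every agonist array on the same side of DMSO. That choice can make differences between the agonists scarcer among them. Guca2a, the guanylin precursor, lay at 10.82 and 10.61 with DMSO, 9.25 and 9.27 with KD3010, and 10.49 and 10.71 with GW1516, a KD3010 minus GW1516 difference of -1.34 (95% interval -1.71 to -0.97, limma adjusted p = 0.0439). Npy, the neuropeptide Y gene, lay at 7.66 and 7.44 with DMSO, 8.37 and 8.09 with KD3010, and 6.56 and 6.87 with GW1516, a difference of 1.51 (1.10 to 1.92, limma adjusted p = 0.0439). The agonist arrays lay on opposite sides of DMSO in Npy. This count was unstable, between 0 and 61 across the settings tried.

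For the 7 genes that rose, none of the differences between the agonists passed over all genes with these values and this model. Pdk4 was called between the agonists with no background correction, with the authors' normalized values and with a trended robust variance. Its difference was the widest of the 7, at -0.94 (-1.40 to -0.49, limma adjusted p = 0.149), from changes against DMSO of 1.93 ± 0.20 with KD3010 and 2.87 ± 0.20 with GW1516. The 5 genes with the smallest differences were Creb3l3 (0.06, -0.32 to 0.45), Ivl (0.12, -0.27 to 0.51), Nceh1 (-0.13, -0.48 to 0.23), Hilpda (0.19, -0.20 to 0.58) and Plin2 (0.24, -0.34 to 0.82). The widest of these intervals, that of Plin2, still allows a difference of 0.82, so equal action was not shown. For Mapre3 the difference was -0.36 (-0.76 to 0.04). Among the targets below the threshold, Cpt2 (-0.01, -0.38 to 0.36), Slc22a5 (0.07, -0.28 to 0.43) and Angptl4 (-0.04, -0.43 to 0.34) were close to 0. Ehhadh (-0.88, -1.36 to -0.41) lay higher with GW1516 and Plin5 (0.54, 0.14 to 0.95) higher with KD3010, without passing over all genes (limma adjusted p = 0.164 and 0.243). The agonists share the DMSO arrays, so their changes against DMSO are not independent of each other.

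**Figure D5:**
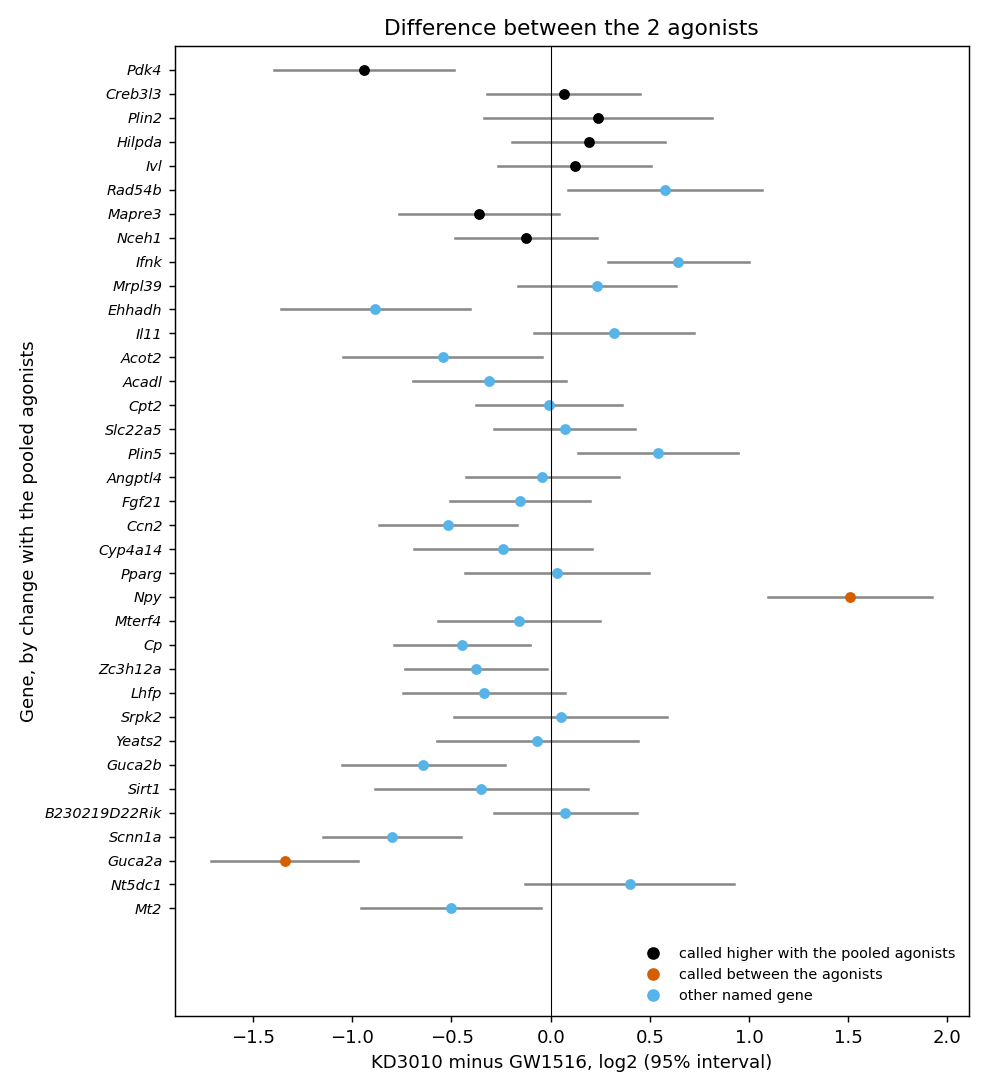
KD3010 minus GW1516 difference in log2 level for each named gene (points) with its 95% interval (lines), ordered by the pooled change against DMSO from Pdk4 at the top to Mt2 at the bottom. Guca2a (-1.34) and Npy (1.51) are the 2 called differences, and among the 7 genes that rose (black) Pdk4 alone has an interval that leaves out 0.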

How the data were processed

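RNA of 6 arrays of primary mouse hepatocytes had been hybridised as biotin-labelled cRNA to Illumina bead arrays, per the labels' protocols. Per the file headers, the deposited unnormalized table gives each probe's average bead intensity (linear scale) with its detection p-value. The submitters' processing notes name GenomeStudio, with no version. In the other deposited table the intensities were already normalized by the authors, and how is not given in the sources used here. It equalled the series matrix (largest difference 0, column medians 257.8 to 257.9, linear and not centred) and has 1 unnamed column, which was not used.

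Intensities were corrected with normexp fitted on the detection p-values (offset 16), quantile-normalized and log2-transformed with limma 3.58.1 under R 4.3.3. Of 25697 probes 23978 had 1 current symbol, 0 had several and 1719 are unnamed here. The pooled fit (lmFit, eBayes) set 4 agonist against 2 DMSO arrays, with 4 residual and 6.778 prior degrees of freedom, and a 3-group fit gave each agonist and their difference. The Benjamini-Hochberg adjustment ran over all 7737 genes. Errors are SE and intervals 95% confidence intervals. For probes not well above background on both DMSO arrays, a fold is a bound, whose DMSO level is, per array, the dimmest signal still detected or the probe's own signal, whichever is higher. The number of arrays limits the precision. The fit was tested on simulated data.

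Named genes were the 12 largest rises and 12 largest falls called with the arrays apart, filled up with the largest changes among genes detected on all 6 arrays, up to 4 called members of each list, and a fixed set of PPAR-related genes named in every case. The members, the 32 gene lists and the rule were chosen with earlier results of these data known. Alternatives covered background, normalization, filter, probe choice, model, averaging of arrays, a replicate block, the variance prior and each array left out. Promoters came from RefSeq (GRCm38.p6), and figures were drawn with matplotlib 3.10.9.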

Additional observations from a re-analysis of the deposited data

Results flagged for a closer look

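Over the 4 agonist arrays, 36 genes named by the rule were examined for 1 array standing apart, and 2 were found where chance alone gives about 1 in 20. Ivl had its GW1516 array A at 7.07 and the other 3 at 7.32, so the gap to the nearest array made up 0.99 of the range, though all 4 stayed above DMSO. Cyp4a14 had its KD3010 array A at 7.79 and the other 3 between 8.31 and 8.34, a gap of 0.935 of the range. Without that array the mean difference of Cyp4a14 from DMSO was 0.32 in place of 0.18. The part of single arrays in these values was not tested further.

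For 2 genes the changes with KD3010 and with GW1516 differed in limma's test of the difference. Guca2a differed from DMSO by -1.45 with KD3010 and by -0.11 with GW1516, a difference of -1.34 (limma adjusted p = 0.0439). Npy differed from DMSO by 0.67 with KD3010 and by -0.84 with GW1516, a difference of 1.51 (limma adjusted p = 0.0439). Pooling the agonists leaves both genes out of the shared change.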

How the results depend on the processing

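Creb3l3 was called under all 17 alternatives, Hilpda under 16, Plin2 under 15, Pdk4 and Nceh1 under 14, Ivl under 12 of 16 and Mapre3 under 5 of 15. The count of genes called higher was 11 with a trended robust variance and 1 to 7 with 1 array left out, 2 without DMSO array A and 1 without DMSO array B. It was 6 with the replicate block, where the calls lost Mapre3, and 5 with the arrays of a treatment averaged. The replicate numbers did not pair the arrays (correlations of A minus B between groups -0.0118 to 0.0122). The count called lower was 1 (Mt2) with the authors' values and with the trended robust variance, and 0 with any array left out. Genes above and below DMSO numbered 244 and 1278 with median scaling, 1377 and 1320 without a filter on dim probes, and 2392 and 2514 with averaged arrays, which leave fewer values to separate. With 1 array left out they numbered 838 to 1497 and 947 to 1608.

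Between the agonists 38 genes were called without background correction, 40 with the authors' values, 5 with detection on all 6 arrays or at a detection p below 0.01, 61 with the trended robust variance, and 0 with median scaling, no filter, the mean of a gene's probes, the replicate block or any array left out. The pooled change of Pparg turned to -0.10 with median scaling and spanned -0.13 to 0.14 with 1 array left out. That of Npy turned to 0.012 with no background correction and 0.0094 with the authors' values, and spanned -0.38 to 0.22 with 1 array left out. The cause was not tested for these shifts. Dim probes limit the folds, since Ivl and Mapre3 lie near background with DMSO.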
